A study of Mus musculus with 12 samples.

Results

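Lysosomal hydrolases and membrane proteins were read in hippocampal and cortical tissue from 3×TgAD mice, a triple-transgenic model of Alzheimer's disease, that drank amitriptyline (AMI) or plain water. The 37 genes were listed by name for their place in the lysosome. Of these, 35 were found in both array tables, out of 18097 gene symbols on the array, and Npc1 and Lipa are not analysed here. A gene was read at 1 probe, its brightest by mean signal across the 12 arrays. All mice were males that carried the 3xTgAD genotype, were 14 months of age when treatment started and 18 months at harvest. AMI was given at 100 µg per g of body weight in the drinking water for 4 months and the vehicle group received water. BrdU, a thymidine analogue that marks dividing cells, was injected into both groups. There were 15 mice per treatment in the study and 3 arrays in each of the groups hippocampus AMI, hippocampus vehicle, cortex AMI and cortex vehicle. Nothing states which mice were chosen or whether both tissues came from the same animals, and no mice without the transgenes were measured, so the values describe AMI within this model.

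Lysosomes are acidic organelles in which soluble hydrolases break down proteins, glycans, sulfated sugars and lipids, and in which membrane proteins such as Lamp1 and Lamp2 form the limiting membrane. Most of the soluble enzymes travel there with a mannose 6-phosphate tag. For many of them, though not all, loss of the single enzyme causes a storage disorder that often strikes the brain. AMI is a cationic amphiphilic drug, a weak base that is trapped in acidic compartments, and drugs of this class can hinder lysosomal lipid breakdown. Many lysosomal genes carry an E-box motif near their start, the CLEAR element, which the transcription factor TFEB and its relatives bind.

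The motif was looked for in the RefSeq promoter windows of the genes (GRCm38.p6, 250 bases before to 50 bases after the annotated start), which were available for 33 of the 35 genes in 34 windows. The search used the E-box core CACGTG and the longer form TCACGTGA that contains it. Each reads the same on both strands. The core was in 12 of the 34 windows (35.3%), against 7.15% of all 32851 windows and 7.84% of the 21263 windows of protein-coding genes. The longer form was in the windows of 4 genes, Ctsa, Ctsd, Gla and Mcoln1 (11.8% of the windows), against 0.974% of all windows. The stretches below end before the annotated start and are shown for 4 genes that separated AMI from vehicle arrays in one of the tissues (Lamp1, Mcoln1, Gaa and Naglu), and for Ctsd, Gla and Glb1 as further genes with the motif. Capitals mark the core.
Lamp1: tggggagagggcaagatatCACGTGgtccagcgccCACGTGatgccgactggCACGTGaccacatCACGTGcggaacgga
Mcoln1: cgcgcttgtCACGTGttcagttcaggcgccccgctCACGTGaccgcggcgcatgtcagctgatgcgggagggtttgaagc
Gaa: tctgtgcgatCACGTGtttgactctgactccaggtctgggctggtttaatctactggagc
Naglu: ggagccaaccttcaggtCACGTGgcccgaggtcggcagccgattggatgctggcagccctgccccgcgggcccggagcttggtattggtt
Ctsd: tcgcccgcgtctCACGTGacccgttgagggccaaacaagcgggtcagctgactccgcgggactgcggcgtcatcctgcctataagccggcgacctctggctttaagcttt
Gla: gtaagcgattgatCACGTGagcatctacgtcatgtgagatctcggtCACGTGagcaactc
Glb1: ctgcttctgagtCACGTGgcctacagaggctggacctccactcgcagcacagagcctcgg
These lie at chr8:13159081-13159160 on the plus strand (Lamp1), chr8:3500439-3500518 on the plus strand (Mcoln1), chr11:119267813-119267872 on the plus strand (Gaa), chr11:101070004-101070093 on the plus strand (Naglu), chr7:142387828-142387937 on the minus strand (Ctsd), chrX:134601186-134601245 on the minus strand (Gla) and chr9:114401018-114401077 on the plus strand (Glb1).

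Lamp1, a major protein of the lysosomal membrane, held 4 copies of the core, which began 61, 45, 28 and 15 bases before the start. Mcoln1, the lysosomal calcium channel, held 2 copies, at 71 and 45 bases, and the nearer one was in the longer form. Gaa, the acid alpha-glucosidase that breaks down glycogen, held 1 copy at 140 bases, and Naglu, an enzyme of heparan sulfate breakdown, held 1 at 73 bases. A match in these windows describes the letters and does not show that a factor binds there.

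**Figure D1:**
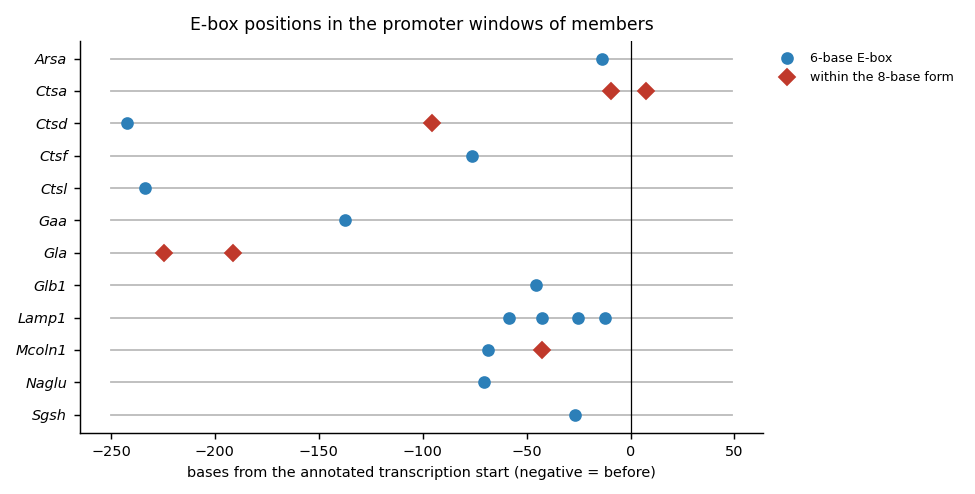
Position of each E-box core in the promoter windows of the 12 lysosomal genes that held it, in bases from the annotated start (negative values lie before the start). Circles are the 6-base core, diamonds are cores within the 8-base form, and Lamp1 holds 4 copies, all within 61 bases of its start.

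Before the treatments were compared, the signal of each probe was set on a log2 scale on which 0 is the mean of all 25697 probes of that array (z normalization, rescaled to log2 units). A level of 1 on this scale is therefore 1 log2 unit above the array mean, and levels of different probes are not compared. A gene was tested in a tissue if 3 or more of its 6 arrays detected the probe above background, at a detection p of no more than 0.05. By this rule 31 of the 35 genes were tested in each tissue. The other 4 were Ctsl, Fuca1, Gla and Sgsh, which encode cathepsin L, alpha-fucosidase, alpha-galactosidase and a heparan sulfatase. Fuca1, Gla and Sgsh were above background on 0 of 12 arrays and Ctsl on 2 cortex AMI arrays, so no level is given for them. Ctsc was above background on 1 of the 3 hippocampus AMI arrays and on 2 of the 3 cortex AMI arrays, so its means there are partly background.

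Between 49% and 51.7% of probes were detected per array. The tissue labels were checked against markers of the 2 regions. C1ql2, Prox1 and Dsp, which mark dentate granule cells, were higher in the hippocampal arrays by 3.22, 1.17 and 1.13 log2 units, and the cortical genes Mef2c and Tbr1 were lower there by differences of -2.13 and -1.87. Of the 10 tested cortex markers 7 were lower in the hippocampal arrays, and 3 (Fezf2 at 0.81, Lmo4 and Tle4) were higher, against the labels. Of the 4 tested hippocampus markers 3 were higher there, and Wfs1 at -0.55 went against the labels. Several arrays stood apart, and some lysosomal genes read highest on them, as given below. The replicate 1 arrays of both hippocampal groups had the lowest mean signals of that tissue (271 for AMI and 319 for vehicle, against 447 to 567 on the other 4). The third hippocampus vehicle array had a mean level of choroid plexus markers of 2.97, against 0.17 to 0.58 on the other 5 hippocampal arrays. Tissue could not be told apart from scanner software, which was BeadStudio for the hippocampus and GenomeStudio for the cortex.

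The first question was whether lysosomal transcripts differed after AMI. In the hippocampus 0 of 31 genes passed an adjusted p of 0.05 by limma with Benjamini-Hochberg adjustment over all 13163 tested probes, and in the cortex 0 of 31 passed among 12944 tested probes. The background was the same, with 0 of the tested probes (0%) called in either tissue. At an unadjusted p under 0.05, limma counted 0 of 31 genes in the hippocampus, where 2.35% of all tested probes lay under it, and 1 of 31 in the cortex, Gaa, where 6.28% did. The differences were centred near 0. In the hippocampus 14 of 31 genes lay above 0 (55% of all tested probes did), with a median log2 fold change of -0.01 beside 0.01 for all tested probes. In the cortex 16 of 31 lay above 0 (57.1% of all tested probes), with a median of 0.02 beside 0.02.

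The arrays bounded these differences as follows. The 95% interval of the log2 fold change had a median half-width of 0.27 in the hippocampus and 0.26 in the cortex. It lay within a 1.5-fold change in either direction for 26 of 31 genes in the hippocampus and for 29 of 31 in the cortex. The exceptions were Ctsb, Ctsa, Ctsc, Ctss and Ids in the hippocampus and Ctsc and Lamp2 in the cortex. For these genes the interval did not leave out a change of that size. Background was not subtracted, so for dim probes the bounds hold for the signal and understate the change in the transcript. Galc, for example, had signals of 63.7 to 103 in the hippocampus and 90.2 to 121 in the cortex. No interval left out 0 in the hippocampus, and 1 did in the cortex, that of Gaa.

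**Figure D2:**
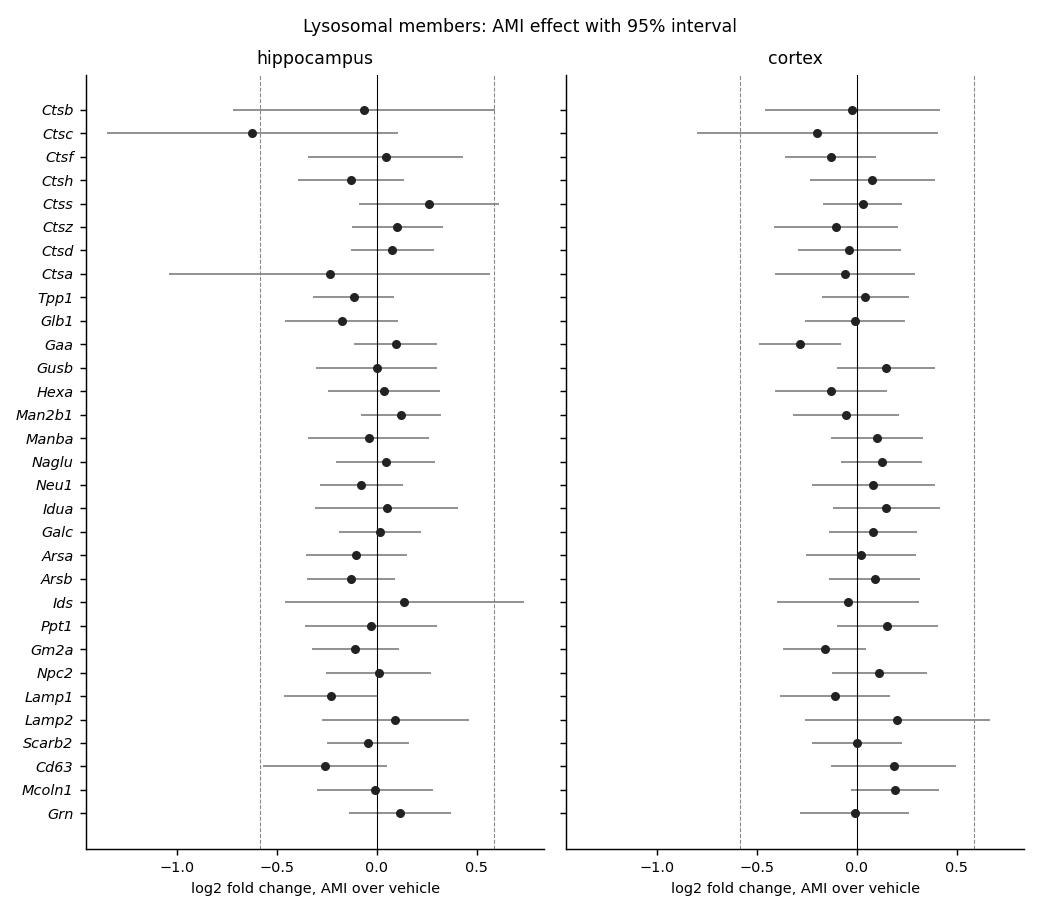
Log2 fold change of AMI over vehicle for the 31 tested lysosomal genes in the hippocampus (left) and the cortex (right), with points for the estimate and bars for the 95% interval of the limma fit. Dashed lines mark a 1.5-fold change in either direction, and the interval of Gaa in the cortex is the only one of the 62 that leaves out 0.

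By role, the estimates of each group with several genes lay on both sides of 0. Of the cysteine cathepsins, proteases that degrade proteins inside lysosomes, 6 were tested and 3 lay above 0 in the hippocampus and 2 in the cortex. Their hippocampal values ran from -0.62 for Ctsc to 0.26 for Ctss. Of the 10 tested glycosidases, which cleave sugars from glycoproteins and glycolipids, 6 lay above 0 in each tissue, with medians of 0.03 and 0.08. Of the 3 sulfatases tested, 1 lay above 0 in the hippocampus and 2 in the cortex. Of the 3 tested genes of lipid breakdown and transport, Ppt1, Gm2a and Npc2, 1 lay above 0 in the hippocampus (median -0.03) and 2 in the cortex (median 0.11). Of the 5 membrane proteins, 1 lay above 0 in the hippocampus (median -0.04) and 3 in the cortex (median 0.18). Grn, which encodes progranulin, a secreted protein delivered to lysosomes, had a log2 fold change of 0.12 in the hippocampus and -0.01 in the cortex. None of the groups held a gene that passed the adjusted threshold.

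In the hippocampus all AMI arrays lay on one side of all vehicle arrays for 4 of 31 genes (12.9%), where 7.89% of all tested probes were separated in this way. Lamp1 read 3.90, 3.63 and 3.77 on the AMI arrays and 4.07, 3.90 and 4.02 on the vehicle arrays. The highest AMI array and the lowest vehicle array lay side by side. The log2 fold change of Lamp1 was -0.23 (SE 0.10), with an unadjusted limma p of 0.0562 and an adjusted p of 1.0.

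Cd63, a tetraspanin of late endosomes and lysosomes, read 3.53, 3.49 and 3.52 on the AMI arrays and 3.61, 3.61 and 4.09 on the vehicle arrays. The third vehicle array was far above the others, and it was the array with the high choroid plexus markers. The log2 fold change of Cd63 was -0.26 (SE 0.14, adjusted limma p of 1.0) with that array and -0.10 (SE 0.10) without it, and the groups stayed apart without it. The other 2 Cd63 probes gave -0.26 and -0.12, and for each of them the AMI and vehicle arrays overlapped. Choroid plexus markers as a list were below 0 for 5 of 5 tested genes in the hippocampus, with a median of -0.74, and their mean level ran from 0.17 to 0.54 in the AMI group and from 0.32 to 2.97 in the vehicle group. Their part in the value of Cd63 beyond the removal of that array was not tested.

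Tpp1, a serine protease that trims peptides from their amino end, read 1.18, 1.1 and 1.22 with AMI and 1.26, 1.25 and 1.34 with vehicle. Its groups were separated by a narrow gap. The log2 fold change was -0.12 (SE 0.09). Man2b1, the lysosomal alpha-mannosidase, read 2.67, 2.76 and 2.62 with AMI and 2.57, 2.59 and 2.54 with vehicle. It was the only one of the separated hippocampal genes that lay higher with AMI, and its log2 fold change was 0.12 (SE 0.09).

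Markers of other cells moved beside these hippocampal values. All 8 tested oligodendrocyte markers lay below 0 with AMI (median -0.46). At an unadjusted limma p under 0.05 were 4 of them (Mog, Mag, Cnp and Ugt8a), beside 2.35% of all tested probes, and 0 at an adjusted one. The AMI and vehicle arrays were separated for 2 of the 8, beside 7.89% of all tested probes. The mean level of the oligodendrocyte markers was 3.57, 3.25 and 3.61 on the AMI arrays and 4.07, 4.03 and 3.58 on the vehicle arrays. These values overlapped. Red blood cell markers were above 0 for 3 of 3 genes, with a median of 0.76. Their mean level was 2.37, 1.61 and 3.42 on the AMI arrays and 1.72, 1.49 and 1.96 on the vehicle arrays, so the groups overlapped. Microglia, which are rich in lysosomal enzymes, gave 11 of 15 markers above 0 with a median of 0.05. The part of these lists in the lysosomal values was not tested, and in whole tissue fewer cells of a type and less RNA per cell cannot be told apart.

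In the hippocampus, arrays with the same replicate number deviated in the same direction over probes (correlations of 0.61, 0.30 and 0.29). Arrays numbered 2 and 3 also did so across numbers, at 0.28 and 0.17. With the replicate number as a block, 3 genes lay under an unadjusted limma p of 0.05, beside 8.08% of all tested probes. They were Lamp1, Ctsc and Cd63, at -0.23, -0.62 and -0.26, with adjusted limma p-values of 0.598, 0.609 and 0.615. For Ctsc, the protease that activates serine proteases of immune cells, the levels were -1.31, 0.04 and -1.20 on the AMI arrays and -0.44, -0.17 and 0.01 on the vehicle arrays. The AMI arrays with the low values were those on which the probe was not above background, and the groups overlapped. Without both replicate 1 arrays the genes under an unadjusted limma p of 0.05 were Lamp1, Glb1 and Ctss, at an adjusted p of 0.703 each, where 6.88% of all tested probes lay under that threshold.

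In the cortex the groups did not overlap for 4 of 31 genes (12.9%), and 12.2% of all tested probes were separated there. Gaa read 3.76, 3.64 and 3.73 with AMI and 3.93, 4.02 and 4.03 with vehicle. All AMI arrays lay clearly under all vehicle arrays. The log2 fold change was -0.28 (SE 0.09, 95% interval -0.49 to -0.08), with an unadjusted limma p of 0.0124 and an adjusted p of 0.756. Under median centring, in which the array medians and not the means and SDs are aligned, the value was -0.15 and the unadjusted limma p was 0.399.

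Gm2a, the activator protein that presents the ganglioside GM2 to beta-hexosaminidase, read 2.72, 2.70 and 2.57 with AMI and 2.85, 2.78 and 2.85 with vehicle. The AMI arrays were again the lower ones. Its log2 fold change was -0.16 (SE 0.09, adjusted limma p of 0.806). Mcoln1 read 0.96, 1.11 and 0.90 with AMI and 0.86, 0.77 and 0.76 with vehicle, so that here the AMI arrays were the higher ones. Its log2 fold change was 0.19 (SE 0.10, adjusted limma p of 0.789). Naglu read -0.19, -0.27 and -0.25 with AMI and -0.43, -0.32 and -0.34 with vehicle. It was also higher with AMI, by a log2 fold change of 0.12 (SE 0.09, adjusted limma p of 0.860).

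**Figure D3:**
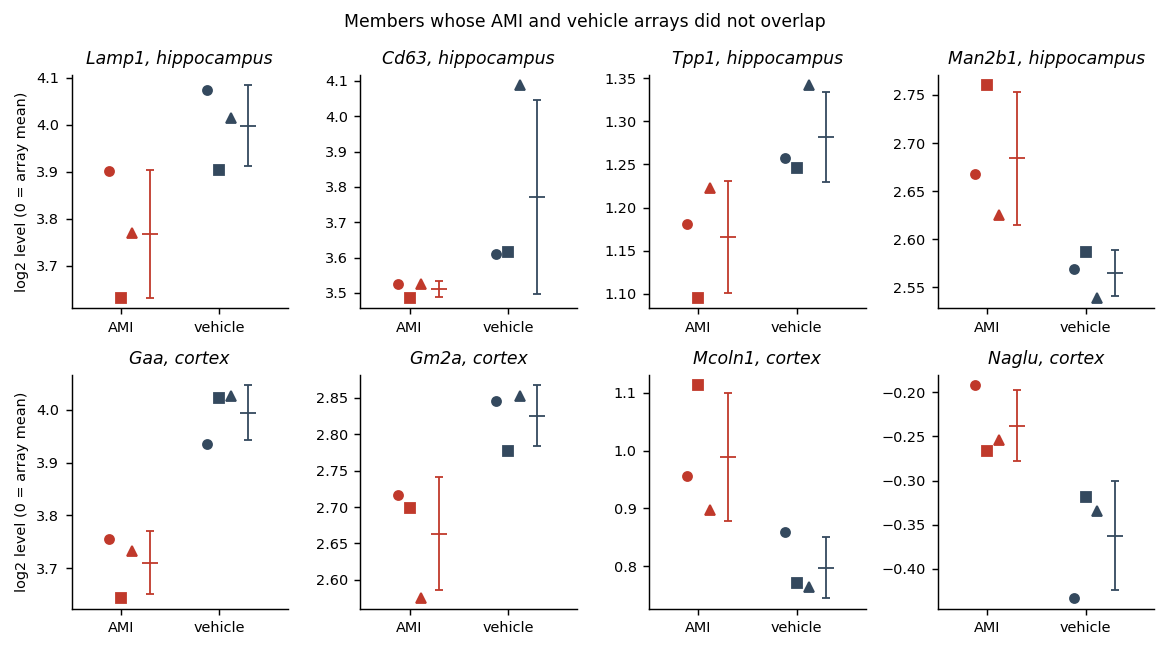
Log2 level (0 is the array mean) of the lysosomal genes with separated AMI (red) and vehicle (dark) arrays, in the hippocampus (top) and the cortex (bottom), with 1 point per array (circle, square and triangle for replicates 1, 2 and 3) and the mean ± SD beside them. Each panel has its own axis, and the third hippocampus vehicle array lies far above the rest for Cd63.

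Of the genes that carried the E-box core, 9 were tested. In the hippocampus 4 lay above 0 and 5 below, with a median log2 fold change of -0.01 beside 0.00 for the 20 tested genes whose windows lacked the core. In the cortex 3 lay above 0 and 6 below, with a median of -0.04 beside 0.06. The separated genes with the core did not share a direction, since Lamp1 (hippocampus) and Gaa (cortex) were lower with AMI and Mcoln1 and Naglu (cortex) higher.

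Other genes of the pathway were also centred near 0. Of 30 further lysosomal genes tested, Psap among them, 13 lay above 0 in the hippocampus with a median of -0.03, and 15 in the cortex with a median of 0.00. Their AMI and vehicle arrays were separated in the hippocampus for 0 higher and 2 lower genes, beside 7.89% of all tested probes. In the cortex 2 higher and 4 lower genes were separated, beside 12.2% of all tested probes. In the cortex Sidt2, a lysosomal membrane protein that takes up nucleic acids, lay lower at -0.25 (SE 0.10), with an unadjusted limma p of 0.0294 and an adjusted p of 0.756. Of the genes that deliver enzymes to lysosomes or regulate the CLEAR element, 13 were tested in the hippocampus and 12 in the cortex. In the hippocampus 0 lay under an unadjusted limma p of 0.05 (2.35% of all tested probes), and in the cortex 2 did (6.28%). These were Igf2r, the large mannose 6-phosphate receptor, at 0.23 (SE 0.09, adjusted limma p of 0.781), and Ap3d1, a subunit of the AP-3 sorting adaptor, at -0.29 (SE 0.10, adjusted limma p of 0.756). Tcfe3, a relative of TFEB, had log2 fold changes of -0.08 in the hippocampus and -0.11 in the cortex.

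The effect of AMI was then compared between the tissues as a tissue by treatment interaction over all 12 arrays. The effect in the hippocampus minus that in the cortex lay above 0 for 10 of 31 genes (46.3% of all probes). Its median was -0.10 log2 units over the genes and -0.02 over all probes. When 1 array was left out the median over the genes ran from -0.14 to -0.06. This shift of the list was not tested. Here 0 of 31 genes passed an adjusted limma p of 0.05, as did 0 of 12430 probes (0%), and 1 gene lay under an unadjusted p of 0.05, where 3.03% of probes did. It was Gaa, whose hippocampal arrays read 3.98, 3.86 and 3.86 with AMI and 3.74, 3.86 and 3.82 with vehicle. The groups overlapped there, unlike in the cortex. The effect of AMI on Gaa in the hippocampus minus that in the cortex was 0.38 (SE 0.12), with an unadjusted limma p of 0.00705 and an adjusted p of 1.0.

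Several genes spread widely between replicates. For Ctsb, Ctsc, Ctsa and Ids the SD between hippocampal replicates was 0.50, 0.55, 0.61 and 0.45, at percentiles 98.8, 99.2, 99.4 and 98.3 of all tested probes. Ctsb, a cathepsin, read 5.64, 4.79 and 4.73 on the hippocampus AMI arrays and 5.67, 4.92 and 4.77 on the vehicle arrays. Ids, the iduronate sulfatase, read 5.66, 4.72 and 4.81 with AMI and 5.31, 4.87 and 4.59 with vehicle. Both were highest on the replicate 1 arrays of either treatment, the arrays of low mean signal. In the cortex the lowest level of Ctsb, 4.73, was on the second AMI array, whose mean signal of 484 was the highest of that tissue. With quantile normalization in place of z normalization, the hippocampal SD of Ctsb was 0.24 and that of Ids 0.21, while those of Ctsa and Ctsc were 0.57 and 0.51. For Ctsa, a carboxypeptidase that also protects neuraminidase, the levels were 1.14, 1.81 and 1.97 with AMI and 1.26, 1.66 and 2.71 with vehicle. The highest was the third vehicle array, as for Cd63. Without that array the log2 fold change of Ctsa was 0.18 (SE 0.25) in place of -0.24 (SE 0.35), with no call in either case.

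**Figure D4:**
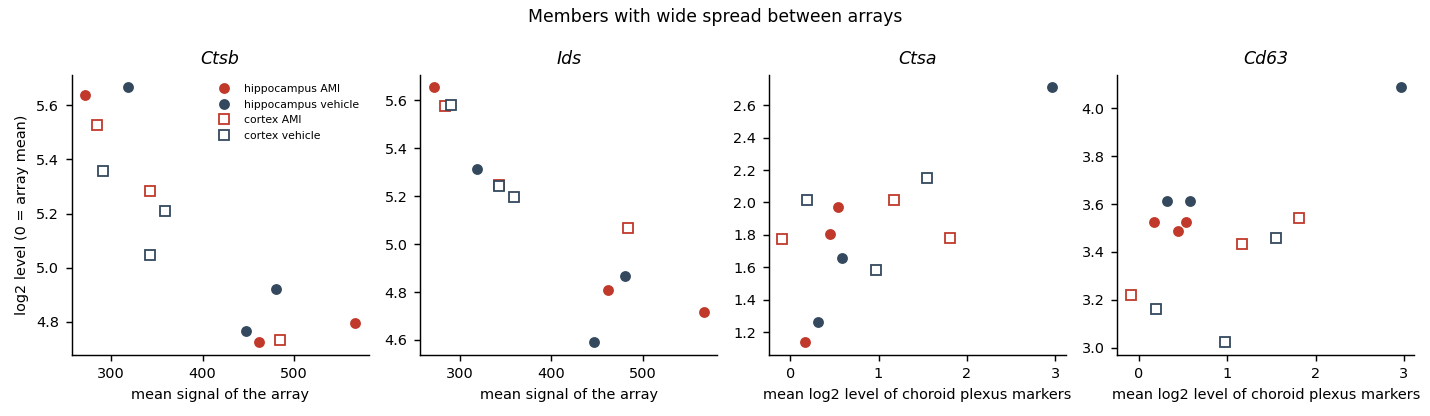
Log2 level (0 is the array mean) of Ctsb and Ids against the mean signal of the array, and of Ctsa and Cd63 against the mean log2 level of choroid plexus markers on the array, with 1 point per array for all 12 arrays. Ctsb and Ids read highest on arrays of low mean signal, and 1 hippocampus vehicle array, with choroid plexus markers at 2.97, gives the highest Ctsa and Cd63 levels.

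Probes of 1 gene did not always point the same way. More than 1 probe was tested for 8 genes in the hippocampus, of which 2 had probes of both signs, and for 7 genes in the cortex, of which 5 did. The second brightest Ctsa probe read 0.38, 0.36 and 0.47 on the cortex AMI arrays and -0.01, -0.13 and 0.30 on the vehicle arrays. Its log2 fold change of 0.35 (SE 0.12, adjusted limma p of 0.756) stood beside -0.06 (SE 0.15) for the brightest probe. For Ids in the cortex the brightest probe lay at -0.05 and the others at 0.18 and 0.29 (adjusted limma p of 0.820 and 0.767). These probes of Ctsa and Ids were singled out after their values were seen. Of the 4 probes of Lamp2, which encodes the other major membrane protein of lysosomes, 3 lay above 0 and 1 below in both tissues.

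More differences passed between the tissues than between the treatments. Tissue here also stands for scanner software, from which it could not be told apart. Of the 31 genes, 13 passed an adjusted limma p of 0.05 between hippocampus and cortex (41.9%), with the treatments pooled. On the vehicle arrays alone 6 passed (20.1% of all probes) and on the AMI arrays alone 5 passed (26.1% of all probes). The pooled share was near the background, since 43.1% of all 13677 probes passed. Of the 13, 11 were higher in the hippocampus and 2 lower, where 24.4% of all probes were called higher and 18.7% lower. The arrays of the tissues did not overlap for 8 of the 31 genes, and for 22.3% of all probes. The median difference over the 31 genes was 0.17 log2 units beside 0.03 over all probes. With median centring, which moved the median of all probes to 0.19, there were 21 higher and 0 lower and the median was 0.46. In that setting 34% of all probes were called higher and 6.13% lower. With quantile normalization there were 10 higher and 4 lower with a median of 0.12, beside 23.8% and 23.1% of all probes, and with neqc, a background correction followed by quantile normalization, 10 and 4 with a median of 0.13, beside 23.9% and 23.1%. Arsb was called higher in both settings, Ctsf and Mcoln1 were called lower, and Glb1 and Scarb2 were not called.

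The 4 largest differences that passed were those of the proteases Ctsz, Ctss, Tpp1 and Ctsh. Ctsb, Ctsc, Ctsf and Ctsa lay at -0.11, -0.09, -0.21 and -0.13 and did not pass, nor did Ctsd at 0.18 (adjusted limma p of 0.0533). Ctsb lay above 0 with quantile normalization and neqc. With median centring Ctsb passed at 0.53 and Ctsd at 0.21 (adjusted limma p of 0.000866 and 0.0430), and Ctsf and Ctsa lay above 0. Ctsz, a carboxypeptidase of the cathepsin family that is abundant in microglia, ran from 0.71 to 1.02 on the 6 hippocampal arrays (median 0.82) and from -0.15 to 0.37 on the 6 cortical arrays (median 0.03). The tissues did not overlap, and the difference was 0.77 (SE 0.09, adjusted limma p of 2.01e-05). A second Ctsz probe also separated the tissues, at 0.48 to 0.75 against -0.36 to 0.02. Ctss, cathepsin S, an enzyme of antigen-presenting cells and microglia, ran from -0.35 to 0.31 in the hippocampus (median 0.09) and from -0.48 to -0.39 in the cortex (median -0.44). The cortical arrays were tightly grouped and the hippocampal ones were not, and the difference was 0.49 (SE 0.09, adjusted limma p of 0.000889). The cortical signals of Ctss were dim, at 98.9 to 127 with background not subtracted. Its difference was 0.45 with quantile normalization and 0.74 with neqc.

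Tpp1 ran from 1.1 to 1.34 in the hippocampus (median 1.23) and from 0.65 to 0.86 in the cortex (median 0.76). The ranges were well apart, with a difference of 0.47 (SE 0.06, adjusted limma p of 4.95e-05). Ctsh, an aminopeptidase of the cathepsin family, ran from 1.15 to 1.54 in the hippocampus (median 1.45) and from 0.78 to 1.20 in the cortex (median 1.07). These ranges overlapped, and the difference was 0.41 (SE 0.09, adjusted limma p of 0.00365).

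Both tested lipid carriers were also higher in the hippocampus. Gm2a ran from 3.02 to 3.28 there (median 3.10) and from 2.57 to 2.85 in the cortex (median 2.75), a difference of 0.37 (SE 0.06, adjusted limma p of 0.00042). Npc2, which hands cholesterol to the lysosomal membrane, ran from 0.41 to 0.78 (median 0.59) against 0.09 to 0.35 (median 0.26), a difference of 0.36 (SE 0.08, adjusted limma p of 0.00241). Neither gene's tissue ranges overlapped. Cd63 ran from 3.49 to 4.09 in the hippocampus (median 3.57) and from 3.02 to 3.54 in the cortex (median 3.33). Its ranges overlapped, and the difference was 0.33 (SE 0.10, adjusted limma p of 0.0180). It was 0.56 on the vehicle arrays alone, which include the third hippocampus vehicle array at 4.09. On the AMI arrays alone it was 0.11 and did not pass (adjusted limma p of 0.478). The interaction of Cd63 was not under an unadjusted limma p of 0.05. Ctss and Neu1 did not pass on the vehicle arrays alone either (adjusted limma p of 0.0895 and 0.103). Nor did Ctsh and Npc2 on the AMI arrays alone (0.133 and 0.0734). The remaining calls toward the hippocampus were Hexa, Naglu, Glb1 and Scarb2, at 0.27, 0.26, 0.26 and 0.23. None of these passed on the vehicle arrays alone (adjusted limma p of 0.0586 to 0.334) or on the AMI arrays alone (0.0514 to 0.246). With quantile normalization Glb1 and Scarb2 did not pass (adjusted limma p of 0.0847 and 0.0874), nor with neqc (0.104 and 0.0882).

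Neu1, the lysosomal sialidase, went the other way. It ran from 2.68 to 2.88 in the hippocampus (median 2.78) and from 2.93 to 3.32 in the cortex (median 3.21). The tissues did not overlap, and the difference was -0.38 (SE 0.08, adjusted limma p of 0.00239), and it was -0.36 with quantile normalization and -0.38 with neqc (adjusted limma p of 0.00147 and 0.00347). With median centring alone it lay at 0.04. Galc, which breaks down the myelin lipid galactosylceramide, was the other gene lower in the hippocampus, at -0.18 (SE 0.06, adjusted limma p of 0.0274). On the vehicle arrays alone and on the AMI arrays alone it did not pass (adjusted limma p of 0.299 and 0.129). Galc passed at -0.20 with quantile normalization and at -0.42 with neqc, and lay at -0.17 with an adjusted limma p of 0.0535 with median centring.

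**Figure D5:**
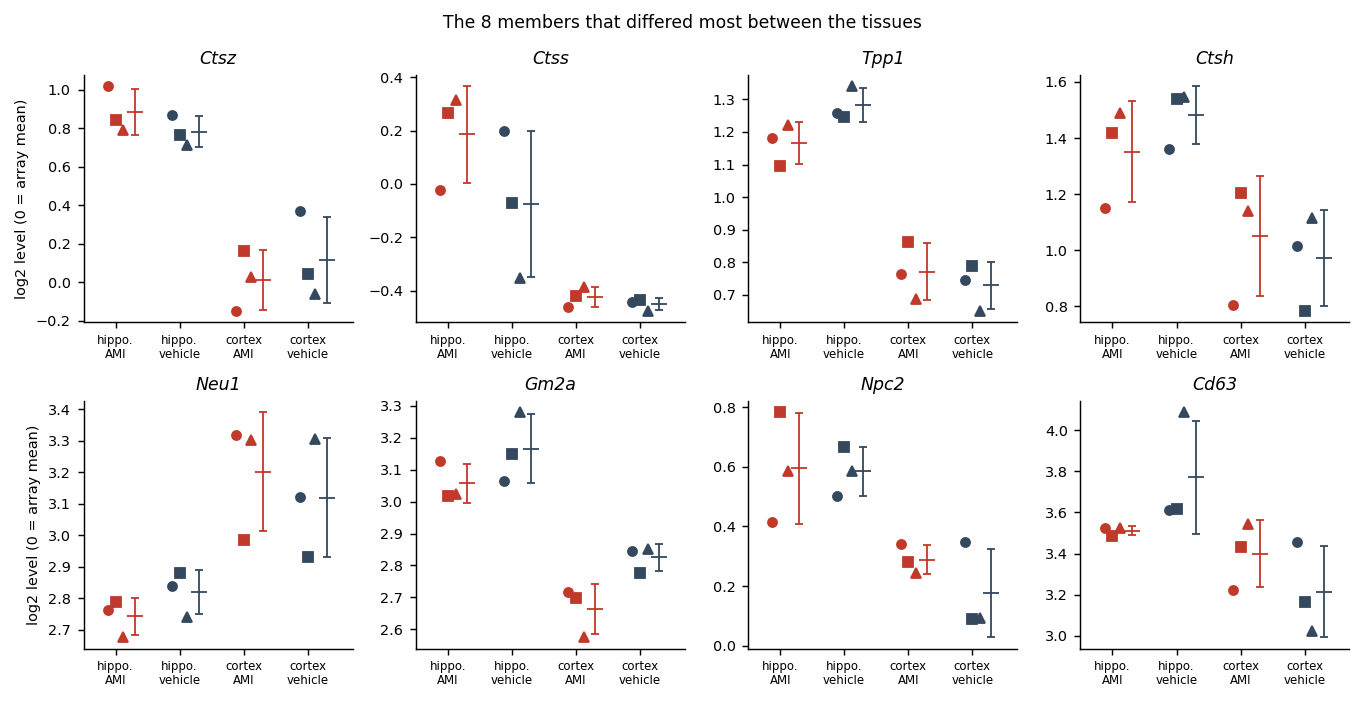
Log2 level (0 is the array mean) of the 8 lysosomal genes with the largest differences between hippocampus and cortex among those that passed, with 1 point per array (red for AMI, dark for vehicle, circle, square and triangle for replicates 1, 2 and 3) and the mean ± SD of 3 arrays beside them. Of the 8 genes, 7 lie higher in the hippocampus and Neu1 lies lower, a direction kept with quantile normalization (-0.36) and neqc (-0.38) and turned with median centring (0.04).

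Microglia markers lay on the same side as Ctsz, Ctss, Tpp1 and Ctsh. Of 15 tested microglia markers, 12 were higher in the hippocampus at an adjusted limma p under 0.05 and 0 lower, with a median difference of 0.43, and their mean level ran from 0.89 to 1.23 on the hippocampal arrays and from 0.53 to 0.75 on the cortical arrays. Oligodendrocyte markers were lower in the hippocampus for 8 of 8 genes, with a median of -0.36, and for 7 of 8 with quantile normalization (median -0.33) and neqc (median -0.36), but with median centring for 4 of 8, with a median of 0.0073. Their part in the lysosomal differences was not tested. Of the 30 further lysosomal genes, 10 were called higher in the hippocampus and 8 lower. Psap, the precursor of the saposins, was lower at -0.62 (SE 0.15). It was also lower with quantile normalization and neqc, at -0.43 in each, but lay at 0.15 with median centring. Of the 30 genes, 11 were called higher and 9 lower with quantile normalization and with neqc, and 14 and 2 with median centring. Among the delivery genes, 3 were called higher and 3 lower, beside 4 and 5 with quantile normalization, 4 and 3 with neqc and 5 and 1 with median centring. M6pr, the small mannose 6-phosphate receptor, was higher at 0.65 (SE 0.09), and so was Gnptab, which makes the mannose 6-phosphate tag, at 0.77 (SE 0.07).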

How the data were processed

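The authors deposited 2 tables, 1 per tissue, of the mean bead signal as a linear intensity for each of 25697 probes and 12 arrays (Illumina MouseRef-8), without normalization, and the scanner software's detection p-value of each probe. Per the labels the software was BeadStudio 3.4 for the hippocampus and GenomeStudio 1.1.1 for the cortex. Following the study's z normalization, log2 signals (floor 1, reached by 0 values) had the array's mean subtracted and were divided by its SD. They were then rescaled by 1.6, the SD averaged over arrays. Background was not subtracted, so fold changes of dim probes are understated, and the depth of an array is its signal over background, where undetected probes had a median of 52.2 to 73.2. Group comparisons used lmFit and eBayes of limma 3.58.1 (R 4.3.3), tested on simulated data first, with Benjamini-Hochberg adjustment over all tested probes. P-values measure only the spread between 3 arrays per group, which may be partly technical, since no label ties an array to an animal. In the hippocampus, deviations of same-numbered arrays correlated at 0.61, 0.30 and 0.29 over probes (arrays numbered 2 and 3 also across numbers, at 0.28 and 0.17), so the numbers, taken from the labels, were treated as pairs in an alternative. The genes, lists and tests were chosen with earlier results of these data known. Genes named with full values were those with an unadjusted p under 0.05 or separated groups in a tissue, an unadjusted interaction p under 0.05, or 1 of the 8 largest tissue differences that passed. Of the other pathway lists, those with an unadjusted p under 0.05 were named, and AMI values of Tcfe3 and tissue values of Psap, M6pr and Gnptab were added after they were seen. Ctsb, Ids, Ctsa and Ctsc were given per array in the hippocampus for their spread or their value with the replicate block, also after they were seen.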

Additional observations from a re-analysis of the deposited data

How the results depend on the processing

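The count of lysosomal genes at an adjusted limma p under 0.05 stayed at 0 under every alternative run for AMI in the hippocampus, for AMI in the cortex and for the interaction, with smallest adjusted p-values of 0.447, 0.105 and 0.589. With the replicate block it was 0 in both tissues. In the cortex same-numbered arrays did not all deviate together (correlations of -0.06, 0.33 and 0.33). There the replicate block left Gaa alone under an unadjusted limma p of 0.05, where 8.69% of all tested probes lay under it. The count of separated genes changed from 4 to 1 in the hippocampus and from 4 to 2 in the cortex with median centring (4.13% and 8.55% of all probes), was 13 without both hippocampus replicate 1 arrays (an alternative chosen after seeing the data, with 39.8% of all probes), and ran from 5 to 10 and from 4 to 8 when 1 array was left out (13.3% to 28.6% and 17.3% to 33.5% of all probes), since smaller groups separate more easily. The median log2 fold change over the genes ran from -0.07 to 0.02 in the hippocampus and from -0.016 to 0.075 in the cortex when 1 array was left out. Between the tissues the count of 13 became 21 with median centring, 6 on vehicle arrays and 5 on AMI arrays, where fewer arrays were tested, and the median of 0.17 became 0.46 with median centring. Neu1 turned from -0.38 to 0.039 with median centring, but was -0.36 with quantile normalization and -0.38 with neqc, where the count was 14 in each. Leaving out 1 array gave counts of 10 to 14. Under an unadjusted p of 0.05, array weights gave 4 hippocampal and 7 cortical genes (9.91% and 22.8% of all probes), the methods' t-test 1 and 3 (3.67% and 6.39%), and neqc 0 and 0 (4.76% and 6.88%). The cause of these shifts was not tested. A block for the chip was not run, because the headers name no chip.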
